A study of Mus musculus with 3 samples.

Results

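The genes described are 9 that encode enzymes of the tricarboxylic acid (TCA) cycle, of the step that feeds pyruvate into it, and of the malate-aspartate shuttle, namely *Got1*, *Got2*, *Mdh1*, *Mdh2*, *Cs*, *Idh3a*, *Ogdh*, *Fh1* and *Pdha1*. They are 9 of 21924 protein-coding genes of the GENCODE M21 annotation. For each of them, the peaks of Ad4BP/SF-1 that overlap the gene or its flanks of 50 kb were taken, which gave 11 of the 5721 peaks of vehicle-treated cells and 9 of the 4025 peaks of cAMP-treated cells. The genes were chosen by the presence, width and score of their peaks in these same lists, so the counts of genes and peaks below are descriptions and no test was made on them.

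Ad4BP/SF-1, encoded by *Nr5a1*, is the nuclear receptor that drives steroidogenic genes in the adrenal cortex and the gonads. The TCA cycle oxidises acetyl-CoA in the mitochondrial matrix and hands electrons to the respiratory chain, and citrate that leaves the matrix supplies the cytosolic acetyl-CoA from which cholesterol is made. The malate-aspartate shuttle carries the reducing equivalents of cytosolic NADH into the matrix, with a malate dehydrogenase and an aspartate aminotransferase on each side of the inner membrane. In Leydig cells, the androgen-producing cells of the testis, luteinizing hormone acts through cAMP.

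Chromatin immunoprecipitation-sequencing (ChIP-seq) with an antibody against Ad4BP/SF-1 was performed on Leydig cells in culture, which were isolated on a Percoll gradient from male ICR mice aged 9 weeks and pooled from several animals. There were 2 groups, cells given vehicle and cells given cAMP, with 1 library in each, and no genetic change is given for either. The dose and the duration of the cAMP treatment are not given in the sources used here, and the input DNA was not analysed here. With 1 library per condition no test between conditions was possible. Each peak has a score, which the peak caller MACS derives from the p-value on a log10 scale and which rises with sequencing depth, and depth is unknown because the lists hold no read numbers. No peak scores below 50 in either list. The methods state a more lenient p-value threshold than this floor, so the threshold behind the deposited lists is not known, and weaker peaks that passed the stated one may be missing. A gene without a peak was not called rather than shown to be unbound. Of 8 genes that mark Leydig cells, *Cyp11a1*, *Cyp17a1*, *Nr5a1* and *Star* had a vehicle peak within 50 kb, and 3 of these, all but *Cyp17a1*, had a cAMP peak. Of 5 genes each of Sertoli and germ cells, *Amh* and *Sox9* and, for germ cells, *Prm1* had a vehicle peak, and *Amh* and *Prm1* had a cAMP peak. These counts were 4 of 8, 2 of 5 and 1 of 5 in the vehicle list, where 36.7% of all protein-coding genes had a peak, and 3 of 8, 1 of 5 and 1 of 5 in the cAMP list, where 28.8% did, so they say little about the cell type. The lists hold no expression values, and the purity of the cells was not measured.

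The sequence that Ad4BP/SF-1 is known to bind was searched for on both strands as CCAAGGCC, CCAAGGTC, TCAAGGCC or TCAAGGTC, called the consensus below. The copies in the peaks nearest to the start sites of *Got1*, *Ogdh*, *Idh3a*, *Got2* and *Cs* are printed because these peaks carry most of what follows. Each is given 5′ to 3′ on the strand that holds the copy, from the mm10 genome, with the consensus in capitals.
*Got1* copy 1, chr19:43524140-43524169, minus strand: agagggggtgtTCAAGGTCacgcagaacag
*Got1* copy 2, chr19:43525041-43525070, minus strand: agtggagacagTCAAGGTCacccacgattg
*Got1* copy 3, chr19:43525221-43525250, minus strand: cgctagatcctTCAAGGTCctttagggcta
*Got1* copy 4, chr19:43525380-43525409, minus strand: atgtgaaatctTCAAGGTCaacaggtggag
*Ogdh* copy 1, chr11:6292032-6292061, plus strand: ccgggagagccCCAAGGTCgcggcgtgtca
*Ogdh* copy 2, chr11:6292155-6292184, minus strand: tgccgcaggcaCCAAGGTCagcgccgtgtc
*Idh3a*, chr9:54586720-54586749, plus strand: cggggacggcgTCAAGGTCaaggcggccag
*Got2*, chr8:95887608-95887637, plus strand: gatgcactacgCCAAGGTCatggatgcaca
*Cs*, chr10:128335817-128335846, plus strand: tttgaatcttcCCAAGGTCacaattatgtc
All 9 of these copies end in GGTC, and 7 of them are followed by an A.

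In the vehicle list, 5 of the 9 genes had a peak within 50 kb (*Got1*, *Got2*, *Cs*, *Idh3a* and *Ogdh*), against 36.7% of all protein-coding genes (95% interval 36.1 to 37.4, exact Clopper-Pearson). Intervals cover counting error only, and those for genes take genes as independent although neighbours can share a peak. In the cAMP list, 4 genes had one, the same genes without *Got2*, against 28.8% of all protein-coding genes. Peaks in both lists were thus called at 4 genes, against 22.5% of all genes, and in either list at 5, against 43.1%. The remaining 4 genes, *Mdh1*, *Mdh2*, *Fh1* and *Pdha1*, had none in either list. Each of the 5 genes had a peak centred within 2 kb of one of its own transcription start sites (TSSs) in the vehicle list, where 5.31% of protein-coding genes did, and 4 did in the cAMP list, where 3.38% did. Within 1 kb the counts were 4 genes in the vehicle list, against 3.71% of protein-coding genes, and 3 in the cAMP list, against 2.23%. The distances of 1 and 2 kb were chosen after the peaks had been seen, and because the genes were chosen with the peaks known, these shares are set side by side as a description.

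**Figure D1:**
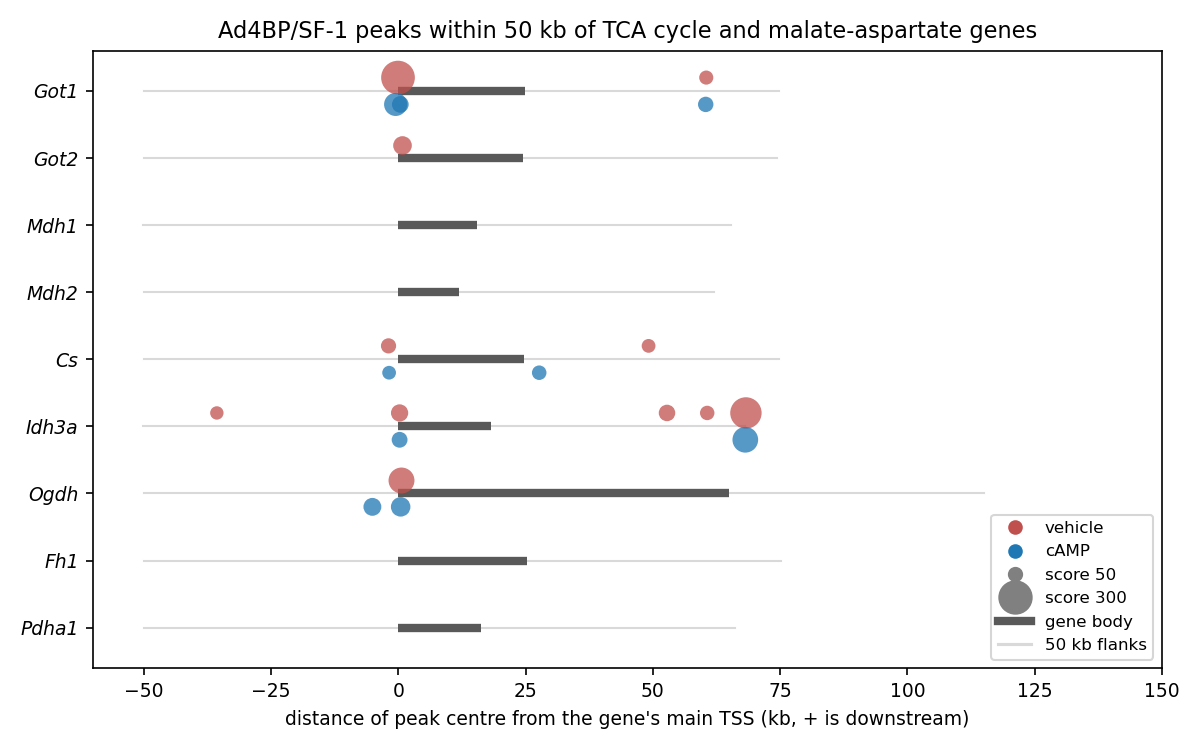
Position of each peak centre in kb from the main TSS of its gene (x axis), for the 9 genes (rows). Dark bars are gene bodies, grey lines the 50 kb flanks, red points vehicle peaks, blue points cAMP peaks, and the area of a point is proportional to its MACS score. *Got1*, *Got2*, *Idh3a* and *Ogdh* each have a vehicle peak centred within 1 kb of a TSS, 6 of the 11 vehicle peaks are centred more than 2 kb from one, and *Mdh1*, *Mdh2*, *Fh1* and *Pdha1* have none.

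*Got1* encodes the cytosolic aspartate aminotransferase of the shuttle, which turns aspartate into oxaloacetate outside the mitochondrion. Its body lies on the minus strand at chr19:43499752-43524605. The vehicle list held a peak at chr19:43523832-43525557 that scored 327.36, which ranked 74 of 5721 and was above 98.7% of the list. It was 1726 bp wide, against a median of 513 bp, and ranked 5 by width, so that by score per bp of width its rank was 1532. Its centre lay 89 bp upstream of the main TSS, and it covered exon 1, part of intron 1 and the DNA upstream. In the cAMP list the same stretch held a pair of peaks. The downstream peak, at chr19:43523926-43524559, was 634 bp wide and scored 80.55, ranking 1423 of 4025. The upstream peak, at chr19:43524694-43525625, was 932 bp wide and scored 154.27, ranking 325. The gap between them was 134 bp and contained the main TSS, and together they covered 86.8% of the vehicle peak.

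The consensus copies at *Got1* follow the same division. Copy 1 lay 450 bp downstream of the main TSS, inside the downstream cAMP peak. Copies 2, 3 and 4 lay 451, 631 and 790 bp upstream of it, inside the upstream cAMP peak. All 4 copies are TCAAGGTC on the minus strand, the strand that *Got1* is read from. Copies 1 and 2 are 901 bp apart and copies 2, 3 and 4 are spaced by 180 and 159 bp. Outside the 8 letters of the consensus the copies were not alike, with between 5 and 11 identical bases of 22 in any pair. The stretch with copies 4 and 3 is printed to show that spacing, in the reading direction of the gene.
*Got1* upstream copies, chr19:43525218-43525412, minus strand: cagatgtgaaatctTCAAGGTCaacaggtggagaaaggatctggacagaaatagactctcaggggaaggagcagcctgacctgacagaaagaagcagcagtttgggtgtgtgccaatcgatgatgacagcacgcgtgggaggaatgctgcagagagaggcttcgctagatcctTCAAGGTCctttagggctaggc
No annotated exon overlaps this stretch. The RefSeq promoter of *Got1* (300 bp, GRCm38.p6) lay nearer to the TSS and held no consensus. All of its 300 bp lay in the vehicle peak and 166 bp in a cAMP peak.

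At least 4 copies were present in 30 vehicle peaks, or 0.524%, and of these 3, the *Got1* peak included, scored at least as high as it did. Of consecutive mm10 windows of 1726 bp, 26.4% held at least 1 copy and 0.0931% held at least 4. The vehicle peaks nearest in width to the *Got1* peak held fewer. The 3 next wider peaks, of 4031, 2376 and 1887 bp, and the 3 next narrower, of 1714, 1619 and 1470 bp, held 0 or 1 copy each. The protein-coding genes with the nearest TSS were *Esp38*, *Vmn1r238* and *Gm10718* for the wider peaks and *Ly6c2*, *Esp38* and *Eef2* for the narrower ones, and only *Gm10718* had its TSS within 1 kb of the peak centre. Of the 7 vehicle peaks wider than 1500 bp, the *Got1* peak was the only one with at least 4 copies. This depends on the limit of 1500 bp, because vehicle peaks of 1318, 1194 and 1149 bp also held 4 copies each.

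**Figure D2:**
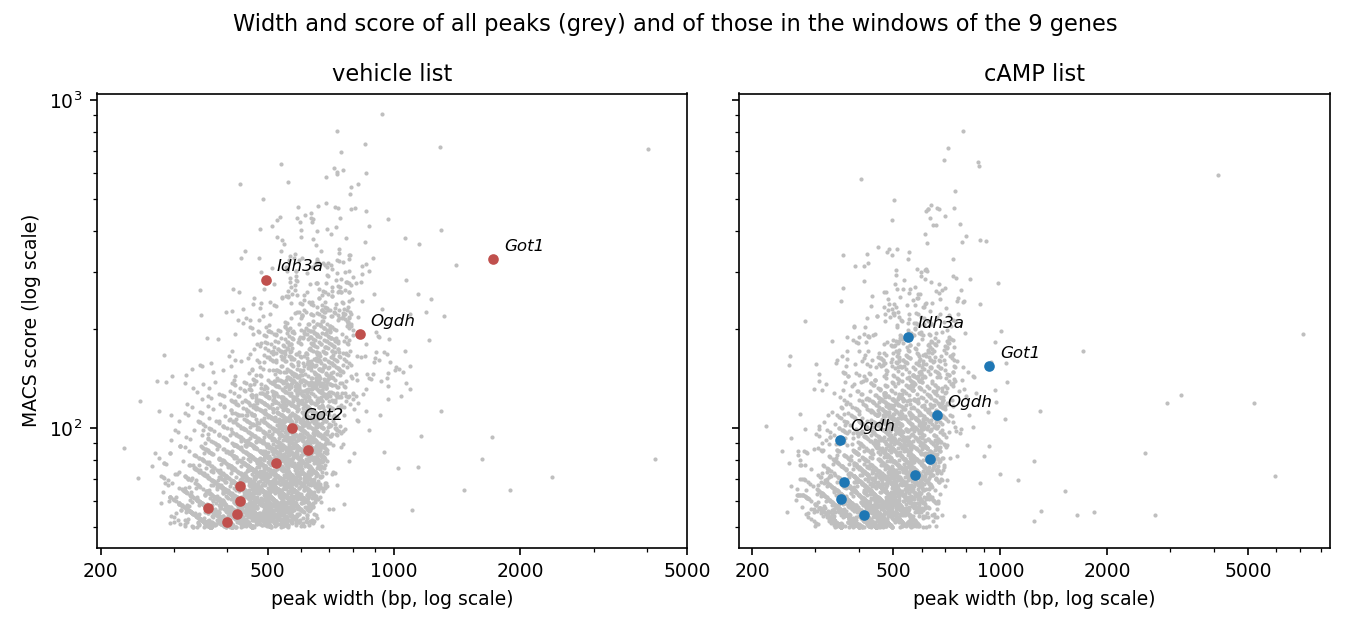
Width in bp (x axis, log scale) and MACS score (y axis, log scale) of all peaks of the vehicle list (left) and the cAMP list (right) as grey points, with the peaks in the windows of the 9 genes coloured and the 4 highest-scoring of them named by the gene of the window (the upper *Idh3a* point is the peak inside *Acsbg1*). The *Got1* vehicle peak, 1726 bp wide with a score of 327.36, is wider than all but 4 peaks of its list.

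*Ogdh* encodes the first enzyme of the oxoglutarate dehydrogenase complex, which turns 2-oxoglutarate into succinyl-CoA. Its body lies on the plus strand at chr11:6291633-6356642. The vehicle list held 1 peak, at chr11:6291680-6292510, which was 831 bp wide, scored 193.59 and ranked 334. The cAMP list held an overlapping peak at chr11:6291734-6292396, which was 663 bp wide, scored 109.46 and ranked 755. Both lay mainly in intron 1 of the main transcript, with centres 462 and 432 bp downstream of the main TSS. They also cover TSSs of other annotated transcripts, and the centres lay 77 and 80 bp from the nearest of those. The cAMP peak lay wholly inside the vehicle peak, and both held the same pair of CCAAGGTC copies, 123 bp apart on opposite strands. A RefSeq promoter of *Ogdh*, chr11:6291920-6292219, lay wholly in both peaks and held both copies, and it was the only one of 13 promoters of these genes with the consensus, which 5.73% of all RefSeq promoters held. The cAMP list alone held another peak upstream, at chr11:6286333-6286686, which scored 92.25 and was centred 5.12 kb from the main TSS. It held 1 copy of CCAAGGTC.

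*Idh3a* encodes the alpha subunit of the NAD-dependent isocitrate dehydrogenase, a regulated step of the cycle. Its body lies at chr9:54586334-54604661 on the plus strand. Peaks across its main TSS were called in both lists, at chr9:54586423-54587046 with a score of 85.78 (vehicle, rank 2030) and at chr9:54586448-54587022 with a score of 72.07 (cAMP, rank 1761). Their centres lay 1 bp apart, and the only consensus copy, TCAAGGTC in intron 1, lay 1 bp from the vehicle centre and 0 bp from the cAMP centre. No other copy among the 13 in the peaks of these genes lay as close to a peak centre.

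*Got2* encodes the mitochondrial aspartate aminotransferase, the partner of *Got1* on the matrix side. Its body lies on the minus strand at chr8:95864134-95888547. A single peak was called, in the vehicle list, at chr8:95887471-95888043 in intron 1, centred 790 bp downstream of the main TSS. It was 573 bp wide, scored 100.17 and ranked 1513, and held 1 copy of CCAAGGTC on the strand opposite to the gene. An exon of a retained-intron transcript of *Got2* overlaps the copy. The cAMP list held no peak within 50 kb, and its nearest lay 104 kb from the gene with a score of 54.85.

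*Cs* encodes citrate synthase, which joins acetyl-CoA and oxaloacetate to begin the cycle. Its body lies on the plus strand at chr10:128337734-128362479. Both lists held a peak upstream, at chr10:128335568-128335996 with a score of 66.54 (vehicle, rank 3383) and at chr10:128335690-128336103 with a score of 54.39 (cAMP, rank 3301). Their centres lay 1.95 and 1.84 kb upstream of the main TSS, the farthest of the peaks near the start of the 5 genes, and their scores were the lowest. Both contained the same CCAAGGTC.

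**Figure D3:**
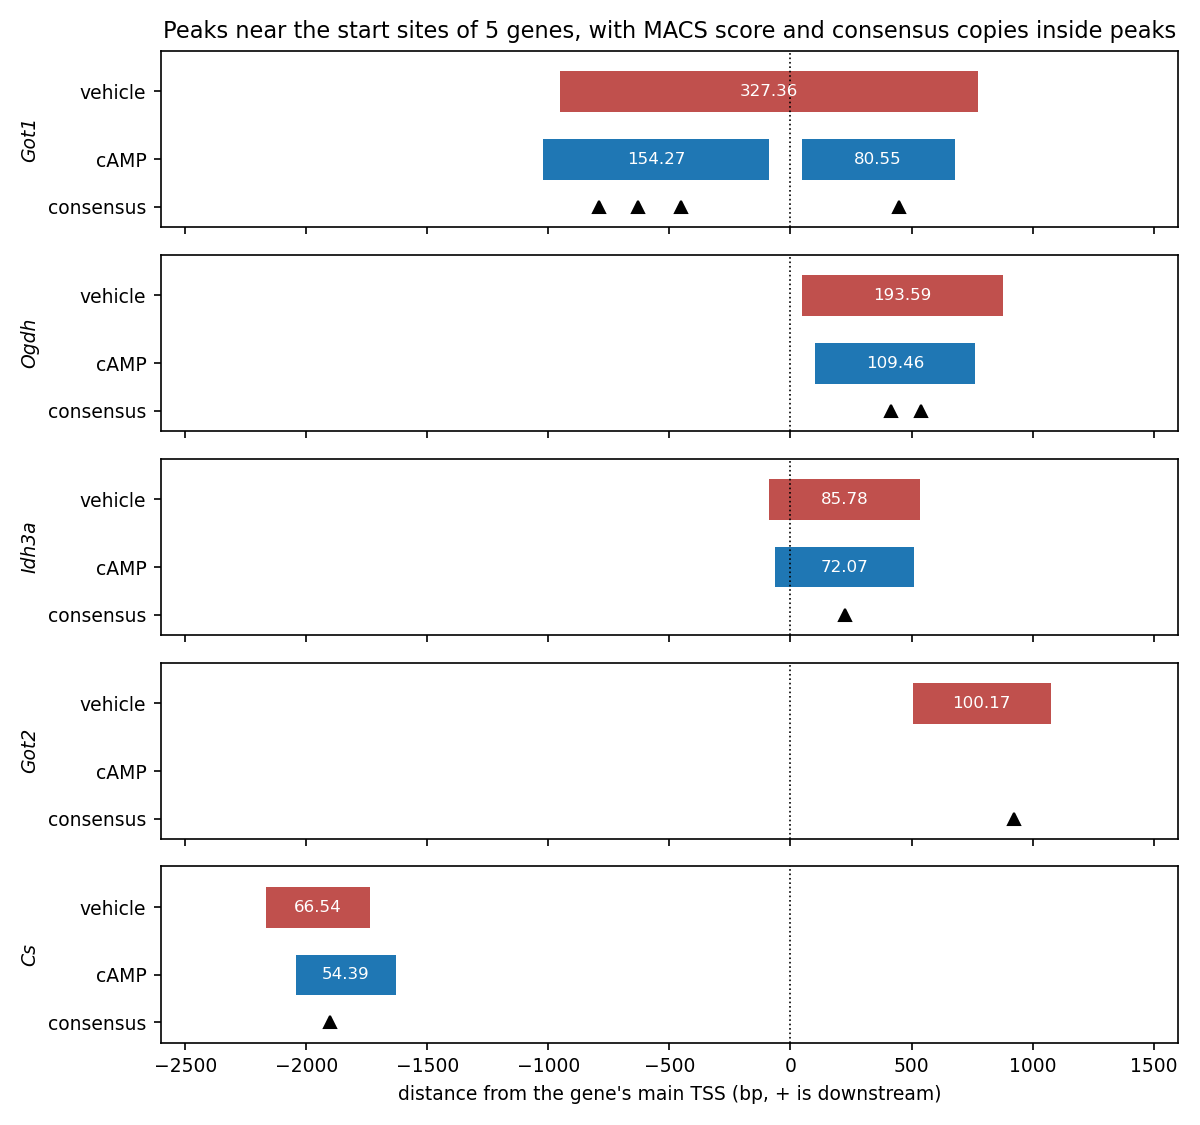
Peaks near the main TSS (dotted line, position 0) of *Got1*, *Ogdh*, *Idh3a*, *Got2* and *Cs* on a scale in bp, drawn in the reading direction of each gene. Red bars are vehicle peaks and blue bars cAMP peaks, each with its MACS score, and triangles are consensus copies inside a peak. At *Got1* the cAMP list splits the vehicle peak at the TSS, with 3 copies on the upstream side and 1 on the downstream side.

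Apart from the upstream *Ogdh* peak, the other peaks in the windows lay nearer to the TSS of a different gene. In the vehicle list 6 of the 11 peaks, and in the cAMP list 4 of the 9, were centred more than 2 kb from a TSS of the 9 genes. The highest-scoring of them was in the window of *Idh3a* but inside *Acsbg1*, which encodes an acyl-CoA synthetase for long-chain fatty acids. It scored 283.78 (vehicle, rank 111) at chr9:54654547-54655041 and 190.18 (cAMP, rank 173) at chr9:54654400-54654947, and in both it held 1 TCAAGGTC. This was also the peak nearest to the limit of the window, 49.9 kb from *Idh3a* in the vehicle list and 49.7 kb in the cAMP list. The nearest peak beyond the limit was a vehicle peak 51.4 kb from *Cs*, closest to the TSS of *Rnf41*, with a score of 85.92.

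Further vehicle peaks in the *Idh3a* window scored 78.43 and 59.99 at *Acsbg1* and 51.68 in *Cib2*, a gene for a calcium-binding protein, and none of these had a cAMP counterpart. Downstream of *Cs*, a vehicle peak with a score of 54.74 lay in *Ankrd52*, and a cAMP peak with a score of 60.82 lay 12 bp from a TSS of *Coq10a*, which encodes a coenzyme Q-binding protein. Downstream of *Got1*, both lists held a peak within *Cnnm1*, without the consensus, and its score was 57.34 (vehicle) and 68.52 (cAMP). The windows differed in how many other genes they held, from 1 other protein-coding gene around *Got1* to 9 around *Cs*.

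Of the 11 vehicle peaks, 6 had an overlapping cAMP peak, against 37.9% of the whole vehicle list. Of the 9 cAMP peaks, 7 had an overlapping vehicle peak, against 53.8% of the cAMP list. These overlaps made 7 pairs, because 1 vehicle peak at *Got1* met both cAMP peaks there. The score was higher in the vehicle list in 6 of the 7 pairs, against 61.1% of the 2171 pairs over all peaks, and higher in the cAMP list only at *Cnnm1*. The vehicle peak was also the wider in 5 of the 7 pairs, against 63.2% of all pairs. Because scores rise with depth and each condition has 1 library, the scores are values of these libraries, and a difference between them cannot be told apart from one of depth.

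**Figure D4:**
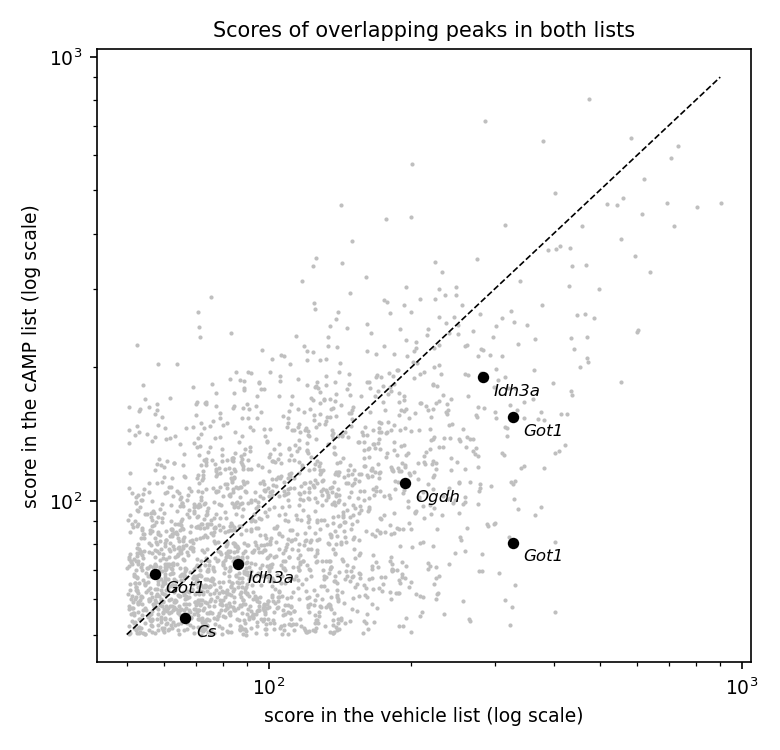
Scores of overlapping peaks in the vehicle list (x axis, log scale) and the cAMP list (y axis, log scale), with all 2171 pairs in grey, the 7 pairs in the windows of the 9 genes in black and the dashed line marking equal scores. The pair above the line, labelled *Got1*, is the one at *Cnnm1*, and the other 6 lie below it.

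The consensus was present in 7 of 11 peaks of the vehicle list, against 80.4% of that list (95% interval 79.3 to 81.4), and in 8 of 9 peaks of the cAMP list, against 77.1% (75.8 to 78.4). Every peak centred within 2 kb of a TSS of the 5 genes held it. Of consecutive mm10 windows of 500 bp, 8.53% held it. The peaks held 13 distinct copies, 9 of them in peaks of both lists, 2 in vehicle peaks only and 2 in cAMP peaks only. The letters CAAGGTCA, which drop the first base of the consensus and add an A behind it, were in 7 vehicle and 8 cAMP peaks, against 52.0% and 51.2% of the lists. The letters of the 13 copies were TCAAGGTC in 7 and CCAAGGTC in 6, and none ended in GGCC, whereas 60.1% of all copies in vehicle peaks and 60.8% of those in cAMP peaks ended in GGTC. An A followed 9 of the 11 copies in vehicle peaks and 9 of the 11 in cAMP peaks, against 81.4% and 84.4% of all copies, a share close to that of the lists. The cAMP response element in its full form, TGACGTCA, which reads the same on both strands and is neither part of the consensus nor contains it, was in 0 of these peaks, and it was in 0.699% of vehicle and 0.77% of cAMP peaks overall. It was found in a RefSeq promoter of *Mdh2* and of *Ogdh*, where 1.79% of 32851 promoters held it.

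*Mdh1* and *Mdh2* encode the cytosolic and mitochondrial malate dehydrogenases, *Fh1* fumarate hydratase, and *Pdha1* a subunit of the pyruvate dehydrogenase that makes acetyl-CoA from pyruvate. The nearest peaks to *Mdh2* were 61.5 kb away in the cAMP list, with a score of 65.62, and 87.7 kb away in the vehicle list, with a score of 180.46. Both were closest to *Por*, the electron donor of microsomal cytochrome P450 enzymes. At *Fh1* the nearest lay 69898 bp away (vehicle, score 67.95) and 69959 bp away (cAMP, score 78.51), closest to *Rgs7*. At *Mdh1* the nearest lay 1180 kb away in both lists. *Pdha1* is on the X chromosome, which held 34 vehicle and 23 cAMP peaks in all, and its nearest peaks were 2490 kb (vehicle) and 210 kb (cAMP) away.

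The consensus letters were counted in the windows with and without peaks. The windows of the 9 genes held 326 copies, of which 12 lay in a peak, while 1 of the 13 copies in peaks lay just past the window of *Idh3a*, in the peak inside *Acsbg1* that crosses its edge. The 4 windows without a peak held 116. *Mdh2* had 51 copies, or 4.56 per 10 kb, the most of the 9 genes, and *Pdha1* had 18, or 1.55 per 10 kb, the fewest. *Mdh1* had 21, or 1.82 per 10 kb, and *Fh1* had 26, or 2.08 per 10 kb. The 5 genes with peaks had between 36 and 49, or 2.3 to 3.93 per 10 kb, more than *Mdh1*, *Fh1* and *Pdha1* and fewer than *Mdh2*. The GC content of the windows ran from 39.8% at *Mdh1* to 50% at *Mdh2*, and its part in them was not tested. Within 1 kb of an annotated TSS there were 3 copies at *Fh1*, 1 at *Mdh1* and none at *Mdh2* or *Pdha1*, against 9 at *Got1*, 3 at *Idh3a*, 2 each at *Ogdh* and *Got2*, and 1 at *Cs*.

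Another 38 genes of the same and related pathways were counted by the same rule. They were the other subunits and isoforms, the regulators of pyruvate dehydrogenase, the carriers, pyruvate carboxylase and the malic enzymes. In the vehicle list 24 of them had a peak within 50 kb, or 63.2%, against the 36.7% of all protein-coding genes, and in the cAMP list 19 had one, against 28.8%. Within 1 kb of a TSS a peak was centred at 5 of the genes in the vehicle list, against 3.71% of protein-coding genes, and at 6 in the cAMP list, against 2.23%. In either list a peak was present at 27 of the 38 genes, against 43.1% of protein-coding genes. By role, these were 8 of 13 further TCA cycle genes, 3 of 4 genes of the pyruvate dehydrogenase complex and 6 of 7 of its kinases and phosphatases. The rest were 2 of 3 genes of pyruvate entry, 2 of 3 carriers of the shuttle and 6 of 8 cytosolic isoforms or related enzymes. No peak counted for the pyruvate dehydrogenase complex was centred within 2 kb of a TSS of its genes, in either list. Some of the peaks counted for the 38 genes lay nearest to the TSS of another gene. Among the 38 genes, *Dlat* and *Sdhd* are neighbours, and the peaks counted for *Dlat* are those of *Sdhd*.

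The highest score among these genes was at *Mpc1*, a subunit of the carrier that brings pyruvate into mitochondria. Its peak, at chr17:8282463-8283268 across an annotated TSS, scored 469.98 (rank 24) in the vehicle list, and the overlapping cAMP peak scored 210.08 (rank 131). Both held 3 consensus copies. The order of the scores was the other at *Me1*, the cytosolic malic enzyme, where the peak in intron 1 scored 177.73 (vehicle, rank 423) and 280.88 (cAMP, rank 55). A second *Me1* peak, 21.4 kb upstream of the main TSS in the vehicle list, scored 276.28 there and 125.92 in the cAMP list.

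Peaks across a TSS were also called in both lists at *Sdhd*, a membrane subunit of succinate dehydrogenase, with scores of 121.17 (vehicle) and 56.29 (cAMP), and both peaks also overlapped the neighbour *Timm8b*. At *Pdk1*, a kinase that inactivates pyruvate dehydrogenase, the scores were 63.34 and 74.89, and at *Me3*, a mitochondrial malic enzyme, 65.64 and 62.31. At *Idh1*, the cytosolic NADP-dependent isocitrate dehydrogenase, only the cAMP list held one, with a score of 51.08. Each of these start-site peaks held at least 1 consensus copy.

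**Figure D5:**
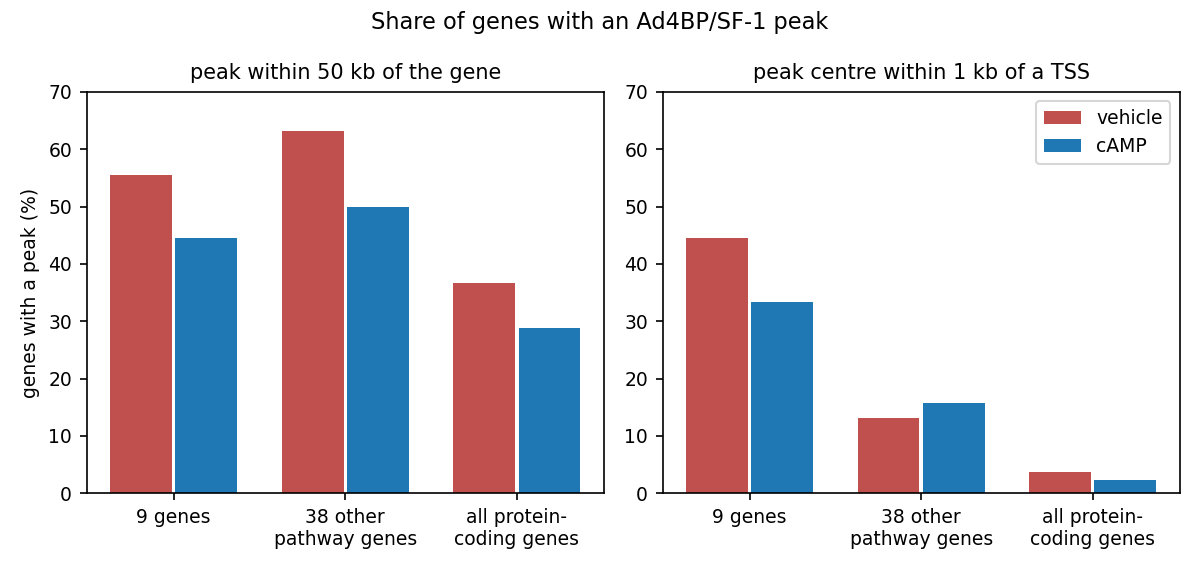
Share of genes in percent (y axis) with a peak within 50 kb of the gene (left) or with a peak centre within 1 kb of a TSS (right), for the 9 genes, the 38 other pathway genes and all protein-coding genes, in the vehicle list (red bars) and the cAMP list (blue bars). For all protein-coding genes the bars stand at 36.7% and 28.8% on the left and at 3.71% and 2.23% on the right.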

How the data were processed

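The authors mapped ChIP-seq reads to mm10 with Bowtie (version 0.12.8 per the submitters' notes, whereas the methods give another), with a few mismatches allowed, used only reads that mapped to 1 place, and ran MACS on each library. Whether the input served as control is not given in the sources used here. The deposited lists hold each peak's position and its MACS score, computed by the authors. Repeated sequence can lose peaks because reads with several positions were dropped.

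Peaks were assigned to GENCODE M21 gene bodies with 50 kb on either side, and an overlap of at least 1 bp made a counterpart. The main TSS is that of the APPRIS principal transcript. Sequences came from GRCm38.p6, the mm10 assembly. Coordinates count from 1. Python 3.11.15, numpy 2.4.6, pandas 2.3.3, scipy 1.17.1 (exact binomial intervals) and matplotlib 3.10.9 were used, and the functions were tested on simulated data. Genes named are the 9, the gene with the TSS nearest to each peak, the genes around the wide *Got1* peak in width, and pathway genes with the 3 highest scores in each list or a peak across the TSS. A result that this rule would name is not reported here. The peaks nearest to genes without a peak, *Dlat* and *Timm8b* are named outside this rule, with their values already seen. The TSS distances of 1 and 2 kb were also chosen after seeing the data. Of the promoter table, 8 of the 9 genes matched, all but *Idh3a*. Alternatives were other windows, score minimums, overlap rules, consensus letters and equal list lengths. The genes, lists and rules were chosen with earlier results of these data known.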

Additional observations from a re-analysis of the deposited data

How the results depend on the processing

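Of 90 values recomputed under other settings, 61 stayed within 1.5 times of the value reported. The number of the 9 genes with a peak, in either list, both lists or each list, was among these under every setting tried. The share of all protein-coding genes was computed only for 50 kb and for 1 and 2 kb from a TSS. Counts at the other settings thus have no background to be read against, and no count of genes or peaks has a replicate check. With the gene body only, there were 4 vehicle and 3 cAMP peaks near the 9 genes, and 12 (vehicle), 11 (cAMP), 9 (both) and 14 (either) of the other pathway genes had a peak. With 10 kb on either side there were 5 vehicle and 7 cAMP peaks, and 15 (vehicle) and 10 (both) of the other genes. With 100 kb on either side there were 21 vehicle and 13 cAMP peaks. With scores of at least 75 there were 6 vehicle and 5 cAMP peaks near the 9 genes, of which 3 and 4 had a counterpart, and 9 (cAMP) and 7 (both) of the other genes had a peak. With scores of at least 100 there were 4 vehicle and 3 cAMP peaks, of which 3 and 3 had a counterpart and 4 and 3 held the consensus, and the other genes numbered 10 (vehicle), 5 (cAMP), 4 (both) and 11 (either). With lists of equal length there were 7 vehicle and 9 cAMP peaks. There, and with 10 kb on either side, the cAMP list held more peaks. At the main setting the vehicle list did, with 11 against 9. Smaller windows and stricter scores leave fewer peaks by construction. The wide *Got1* peak, which ranked 74 by score, ranked 1532 by score per bp of width and 5 by width. Assigned by the nearest TSS, *Got2* had a cAMP peak too, at the 104 kb given above, and 5 genes had one in each list. No paired analysis was possible because each condition has 1 library, and for the same reason no library could be left out. The number of reads is not known and peaks scoring under 50 are not listed, so the genes called without a peak may hold weaker ones.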
